A study of Homo sapiens with 15 samples.

Results

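The exon junction complex core was followed as 5 genes, EIF4A3, MAGOH, MAGOHB, RBM8A and CASC3, chosen by name from the symbol column of the gene count tables of 2 human cell lines. All 5 were found among the 62703 genes listed for HEK293T and among the 35595 genes listed for HuCCT1, and all 5 passed the filter on low counts in both lines. The study sequenced total RNA depleted of ribosomal RNA from HEK293T, a line from embryonic kidney, and HuCCT1, a line from a bile duct cancer. It set out to examine how the spliceosomal protein encoded by SNRPD2 relates to pseudouridine, a modified base that PUS7 writes into RNA. The HEK293T groups were SNRPD2KO, PUS7KO and Ctrl, and the HuCCT1 groups were SNRPD2KO and Ctrl, with 3 libraries in each. KO stands for a CRISPR-Cas9 knockout and Ctrl for control. Whether the edited cells were a clone or a pool is not given in the sources used here, and nothing says that replicates came from separate cultures, so the tests measure the spread between these libraries.

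The core is a clamp that the spliceosome leaves on messenger RNA just upstream of each exon-exon junction. EIF4A3, a DEAD-box RNA helicase, grips the RNA, and the heterodimer of RBM8A (also called Y14) with MAGOH or its paralog MAGOHB locks the helicase closed. CASC3 (also called MLN51 or Barentsz) joins the clamp, mostly on spliced transcripts bound for the cytoplasm. Complexes still present downstream of a stop codon mark the RNA for nonsense-mediated decay (NMD), and the clamp also serves mRNA export and splicing of neighbouring introns. In the tables EIF4A3 (ENSG00000141543.12) lies on chromosome 17 from 80134369 to 80147151, and CASC3 (ENSG00000108349.17) on chromosome 17 from 40140318 to 40172171, both in build hg38. MAGOH (ENSG00000162385.11) lies on chromosome 1 from 53226900 to 53238518, RBM8A (ENSG00000265241.8) on chromosome 1 from 145921556 to 145927678, and MAGOHB (ENSG00000111196.10) on chromosome 12 from 10604193 to 10613609. CASC3 is on the plus strand and the other four genes are on the minus strand.

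MAGOH and MAGOHB are a closely similar pair, and the bases that tell them apart are what lets reads be assigned to either gene. Over their coding sequences of 438 and 444 bases in GENCODE 29, 379 of 438 aligned bases were identical (86.5%) and 59 differed. The longest stretch without a difference was 38 bases. The following stretch of 97 bases of exon 5 is shown because it holds 13 differences (in capitals), all but the last of them in its 5′ part, ahead of a stretch without any. It lies at chr1:53227048-53227144 for MAGOH and chr12:10606278-10606374 for MAGOHB (GRCh38, minus strands, read 5′ to 3′).
MAGOH: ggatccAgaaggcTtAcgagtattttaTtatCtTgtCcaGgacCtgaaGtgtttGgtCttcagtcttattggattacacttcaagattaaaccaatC
MAGOHB: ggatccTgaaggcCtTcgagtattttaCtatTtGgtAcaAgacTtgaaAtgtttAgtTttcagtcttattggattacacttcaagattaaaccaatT
A read that lies wholly inside an identical stretch, of 38 bases at most, cannot be assigned to 1 of the 2 genes. Their separate values are uncertain to that extent, and both separate and summed values are given below.

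Total counts ran from 7944276 to 11270267 per HEK293T library and from 13776166 to 16795618 per HuCCT1 library. Values below are CPM, counts scaled to a common library total with TMM factors, and 3 counts, the limit that a count of 0 allows, correspond to at most 0.378 CPM in any library. The labelled lines were checked by markers: KRT7, a duct keratin, ran from 4492 to 5119 CPM in HuCCT1 and was near 0 in HEK293T, where LIN28B ran from 34.9 to 70.6 CPM. The renal factor PAX2 was at most 0.799 CPM in HEK293T. PUS7 averaged 16.0 ± 2.24 CPM in PUS7KO and 26.5 ± 0.510 CPM in Ctrl (SD, n = 3 each). SNRPD2 went against its label. It averaged 280.4 ± 31.9 CPM in HEK293T SNRPD2KO and 182 ± 13.6 CPM in HEK293T Ctrl, and 288.1 ± 29.4 CPM in HuCCT1 SNRPD2KO and 154.5 ± 7.30 CPM in HuCCT1 Ctrl (SD, n = 3 each). PUS7KO also stood above HEK293T Ctrl for SNRPD2, at 260.5 ± 22.6 CPM (SD, n = 3). By edgeR's quasi-likelihood test SNRPD2 was higher in PUS7KO than in Ctrl (log2 fold change 0.52, adjusted p = 0.000338). Between SNRPD2KO and PUS7KO its difference did not pass (0.11, adjusted p = 0.563). Every direction below is therefore that of the libraries labelled SNRPD2KO, not of the SNRPD2 level.

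EIF4A3, the helicase that holds the RNA, was lower in PUS7KO and varied widely between replicates in HEK293T. As these are bulk libraries, fewer cells with a transcript and less of it per cell cannot be told apart. It stood at 12.03, 3.67 and 21.8 CPM in the 3 PUS7KO libraries (126, 44 and 209 counts). In the libraries labelled SNRPD2KO it stood at 30.04, 21.0 and 61.9 CPM (280, 191 and 725 counts), and in Ctrl at 70.9, 35.2 and 79.1 CPM (661, 308 and 696 counts). Every PUS7KO library lay below every Ctrl library, whereas SNRPD2KO overlapped both other groups. PUS7KO averaged 12.5 ± 9.05 CPM, SNRPD2KO 37.6 ± 21.5 CPM and Ctrl 61.7 ± 23.4 CPM (SD, n = 3 each). Against Ctrl, EIF4A3 was 5.06-fold lower in PUS7KO (log2 fold change -2.34, standard error 0.44, adjusted p = 0.000358), by edgeR's quasi-likelihood test with Benjamini-Hochberg adjustment over all 15882 genes tested. It ranked 259th from the lowest of 15882 fold changes. The call held in all 17 alternatives run, which included leaving out each library, with log2 fold changes between -2.98 and -1.86.

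The libraries labelled SNRPD2KO gave a log2 fold change of -0.70 for EIF4A3 against Ctrl (standard error 0.40, adjusted p = 0.152), which did not pass the threshold of 0.05. It passed in 4 alternatives and not in 13. It passed without SNRPD2KO replicate 3, the library at 61.9 CPM (-1.25, adjusted p = 0.0147), and without a filter on low counts (-0.62, adjusted p = 1.69e-07). The unfiltered change was smaller than in the main fit, and why its adjusted p was lower was not tested. A fit with a block by replicate number, described under processing, passed too. The libraries labelled SNRPD2KO were higher than PUS7KO by 1.64 on the log2 scale (standard error 0.45, adjusted p = 0.046), although SNRPD2KO replicate 2 at 21.0 CPM lay just under PUS7KO replicate 3 at 21.8 CPM. That difference was lost with DESeq2 (adjusted p = 0.14), with robust dispersions (0.246), with only these 2 groups in the fit (0.0692), with each library's trend with transcript GC content removed (0.1) and in 5 of the 6 fits that left out 1 library (all but PUS7KO replicate 3). In HuCCT1, EIF4A3 stood at 249.4, 290.3 and 293.5 CPM in SNRPD2KO and at 388.2, 366.2 and 380.8 CPM in Ctrl. The HuCCT1 groups did not overlap, and EIF4A3 was 1.36-fold lower in SNRPD2KO (log2 fold change -0.45, standard error 0.07, adjusted p = 0.000156).

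**Figure D1:**
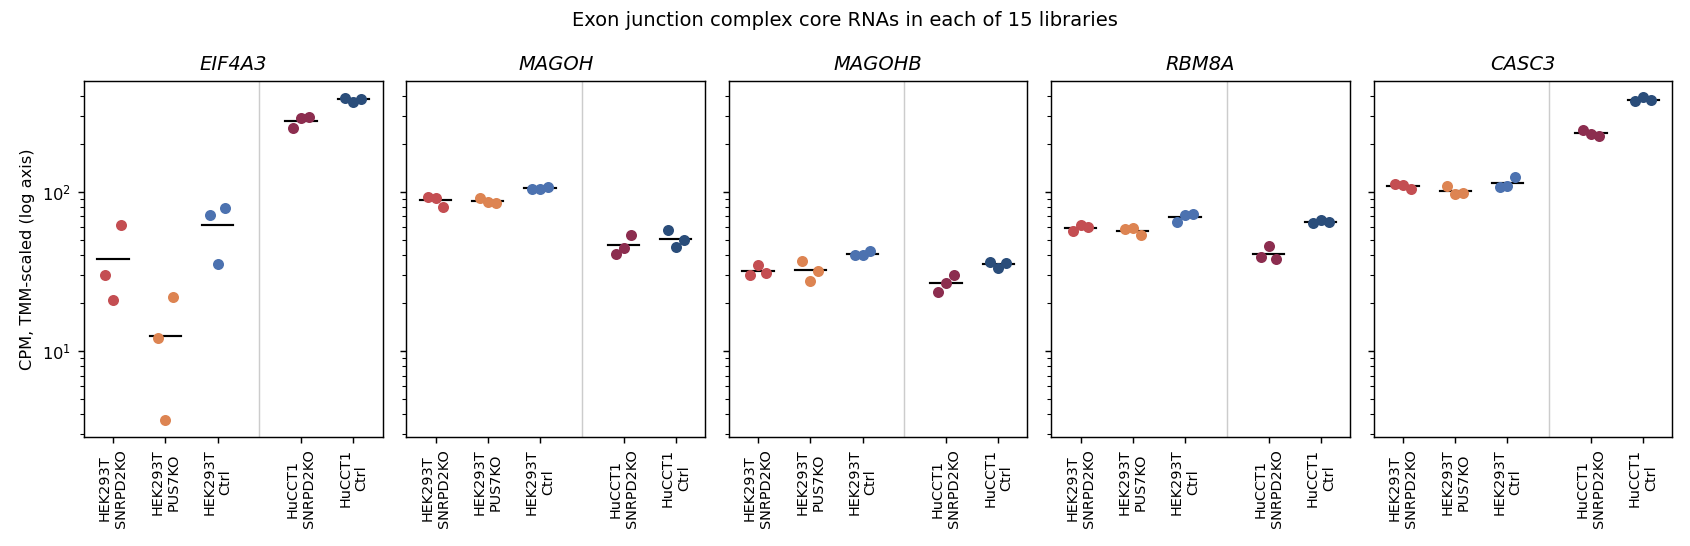
CPM (TMM-scaled, log axis) of EIF4A3, MAGOH, MAGOHB, RBM8A and CASC3 in each of 15 libraries; points are libraries in order of replicate number, bars are group means, and a vertical line parts HEK293T from HuCCT1. EIF4A3 spans 3.67 to 79.1 CPM in HEK293T, while the other four genes stay in narrow bands within each group.

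The spread of EIF4A3 between replicates set it apart from its partners, and its order by replicate number was the same in each HEK293T group. Its standard deviation of log2 CPM within HEK293T groups, pooled over the 3 groups, was 0.94. That was the 45th highest of 10711 genes with at least 5 CPM, for which the median was 0.15 and the 99th percentile 0.51. MAGOH, RBM8A, CASC3 and MAGOHB had 0.07, 0.08, 0.09 and 0.14, all at or under the median gene. In HuCCT1 the EIF4A3 spread was 0.10, next to a median of 0.10 over 10076 genes, and the highest of the 5 was MAGOH with 0.195. No gene in the HEK293T table overlaps EIF4A3, and its pseudogene EIF4A3P1 held at most 1 count per library.

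**Figure D2:**
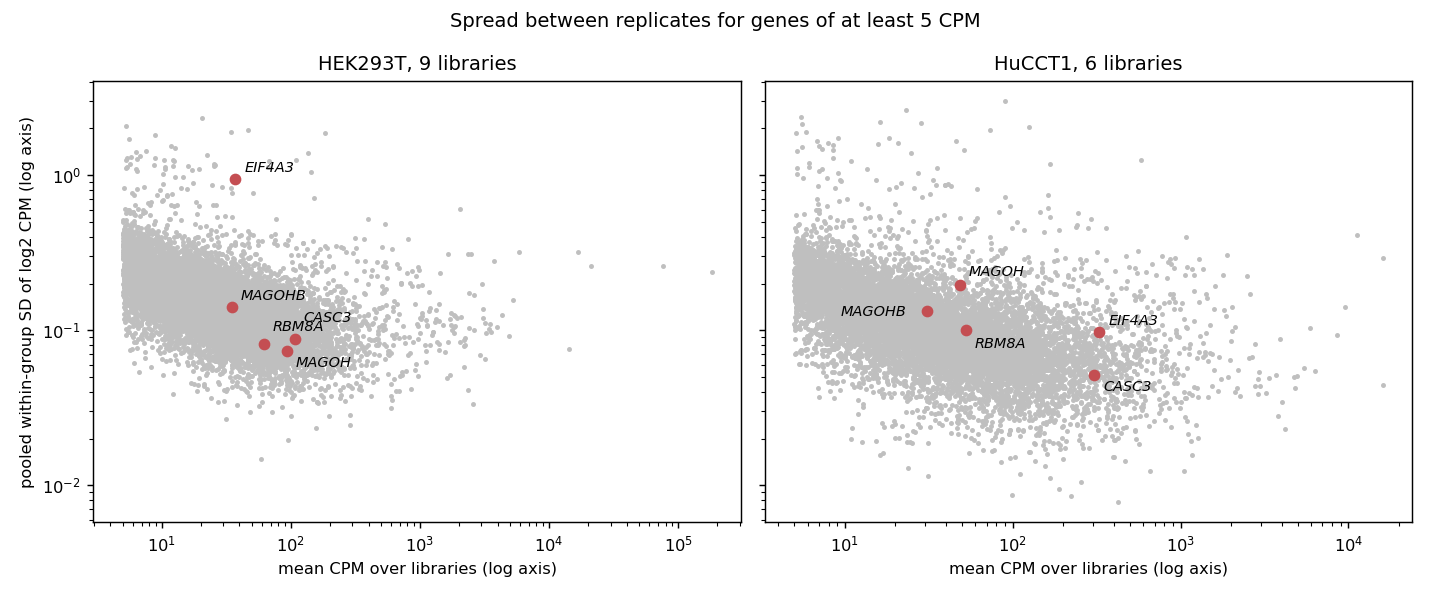
Pooled within-group standard deviation of log2 CPM against mean CPM (both log axes) for genes of at least 5 CPM, in 9 HEK293T libraries on the left and 6 HuCCT1 libraries on the right; grey points are all genes and red points the 5 core genes. In HEK293T, EIF4A3 lies at 0.94, far above the other four at 0.07 to 0.14, and in HuCCT1 it lies at 0.10 among the other genes.

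RBM8A, the RNA-binding protein of the heterodimer, was lower in both lines. It stood at 56.3, 61.7 and 59.6 CPM in HEK293T SNRPD2KO, at 58.6, 58.8 and 53.1 CPM in PUS7KO, and at 64.2, 71.4 and 72.4 CPM in HEK293T Ctrl. Every SNRPD2KO and every PUS7KO library lay below every Ctrl library. The differences were small: 1.17-fold lower in SNRPD2KO (log2 fold change -0.23, standard error 0.09, adjusted p = 0.0321) and 1.22-fold lower in PUS7KO (log2 fold change -0.29, standard error 0.09, adjusted p = 0.00989). In HuCCT1, RBM8A stood at 38.9, 45.4 and 38.0 CPM in SNRPD2KO and at 63.1, 66.2 and 64.1 CPM in Ctrl, again without overlap. It was 1.58-fold lower there (log2 fold change -0.66, standard error 0.08, adjusted p = 1.98e-05). The HEK293T SNRPD2KO call did not hold with the GC trend removed (-0.15, adjusted p = 0.108), without a filter on low counts (adjusted p = 0.325), or in 5 of the 6 fits that left out 1 library (all but Ctrl replicate 1). The PUS7KO call was lost without that filter (adjusted p = 0.167) and without PUS7KO replicate 3 (0.0708). GNRHR2 and LIX1L-AS1, which overlap RBM8A on the other strand, held 6 to 17 and 10 to 27 counts per HEK293T library, and whether counting used the strand is not given in the sources used here. The processed pseudogene RBM8B held 4 to 11 counts per HEK293T library and 14 to 62 per HuCCT1 library.

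MAGOH, which pairs with RBM8A, was lower in HEK293T in the libraries labelled SNRPD2KO and in PUS7KO. It stood at 92.7, 91.5 and 80.3 CPM in SNRPD2KO, at 90.6, 86.7 and 84.7 CPM in PUS7KO, and at 103.1, 104.2 and 106.8 CPM in Ctrl. Neither SNRPD2KO nor PUS7KO overlapped Ctrl. MAGOH was 1.19-fold lower in SNRPD2KO (log2 fold change -0.25, standard error 0.08, adjusted p = 0.0155) and 1.199-fold lower in PUS7KO (log2 fold change -0.26, standard error 0.08, adjusted p = 0.0127). Each call was lost in fits without 1 library: SNRPD2KO replicate 3 (adjusted p = 0.1) or Ctrl replicate 3 (0.052) for SNRPD2KO, and PUS7KO replicate 3 (0.0656) for PUS7KO. Without a filter on low counts neither passed (adjusted p = 0.21 in SNRPD2KO and 0.214 in PUS7KO). HuCCT1 held 40.4, 44.0 and 53.7 CPM in SNRPD2KO and 57.4, 45.0 and 49.6 CPM in Ctrl. Those groups overlapped, and the log2 fold change of -0.14 (95% interval -0.36 to 0.08, adjusted p = 0.318) did not pass.

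MAGOHB, the paralog that can take the place of MAGOH, was lower than Ctrl in PUS7KO and in the libraries labelled SNRPD2KO of both lines, but its direction in HEK293T SNRPD2KO turned once the GC trend was removed. It stood at 29.9, 34.9 and 30.9 CPM in HEK293T SNRPD2KO, at 37.0, 27.6 and 32.0 CPM in PUS7KO, and at 39.8, 39.9 and 42.2 CPM in HEK293T Ctrl. No SNRPD2KO or PUS7KO library reached the lowest Ctrl library. The log2 fold changes were -0.35 in SNRPD2KO (standard error 0.11, adjusted p = 0.0136) and -0.34 in PUS7KO (standard error 0.11, adjusted p = 0.0176). With the GC trend removed the SNRPD2KO change was 0.198 (adjusted p = 0.21) and the PUS7KO change was -0.12 (adjusted p = 0.449). GC content of the longest transcript was 37.0% for MAGOHB, the lowest of the 5 genes, and across all genes it correlated with the fold change in HEK293T (Spearman rho 0.369 in SNRPD2KO and 0.183 in PUS7KO). Leaving out SNRPD2KO replicate 1 also lost the SNRPD2KO call (adjusted p = 0.0717), and leaving out PUS7KO replicate 2 (0.109), PUS7KO replicate 3 (0.0567) or Ctrl replicate 3 (0.059) lost the PUS7KO call. Without a filter on low counts neither HEK293T call held (adjusted p = 0.0664 in SNRPD2KO and 0.106 in PUS7KO). In HuCCT1, MAGOHB stood at 23.5, 26.7 and 29.95 CPM in SNRPD2KO and at 36.2, 33.1 and 35.7 CPM in Ctrl. The groups did not overlap, and the log2 fold change was -0.39 (standard error 0.09, adjusted p = 0.00427).

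With both genes summed, the log2 fold change was -0.28 in HEK293T SNRPD2KO (adjusted p = 0.00819), -0.28 in PUS7KO (adjusted p = 0.00786) and -0.24 in HuCCT1 SNRPD2KO (adjusted p = 0.0614), so the HuCCT1 call rested on counting MAGOHB apart. MAGOHB made up 36.7%, 37.7% and 35.8% of the counts of the pair in HuCCT1 SNRPD2KO, against 38.6%, 42.4% and 41.8% in HuCCT1 Ctrl. Every SNRPD2KO library lay below every Ctrl library, by 4.21 percentage points between means (36.7% ± 0.955 and 41.0% ± 2.03, SD, n = 3 each). The exact two-sided permutation test gave p = 0.1, the smallest that 3 against 3 libraries allow. In HEK293T the share was 24.4%, 27.6% and 27.8% in SNRPD2KO, 29%, 24.2% and 27.4% in PUS7KO, and 27.8%, 27.7% and 28.3% in Ctrl. Both SNRPD2KO and PUS7KO overlapped Ctrl, and the exact permutation tests against Ctrl gave p = 0.2 for SNRPD2KO (-1.33 points) and p = 0.7 for PUS7KO (-1.08 points). Exact Clopper-Pearson intervals at 95% were wider than those differences, for example 21.9% to 27.0% for HEK293T SNRPD2KO replicate 1, and cover counting error only. Annotated copies of MAGOH, MAGOH2P and MAGOH3P, held at most 9 counts per library.

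**Figure D3:**
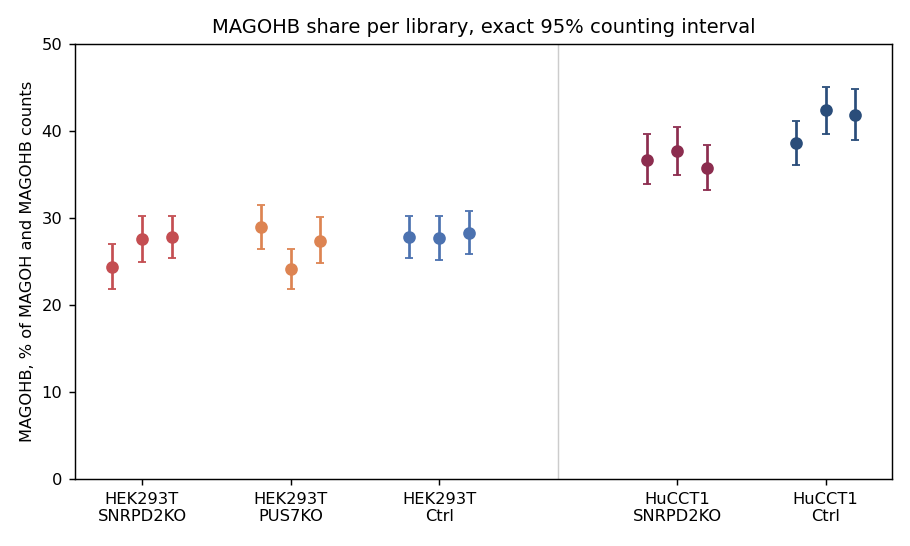
MAGOHB counts as a percent of MAGOH and MAGOHB counts in each of 15 libraries, by group; points are libraries and bars exact 95% intervals for counting error. The HuCCT1 SNRPD2KO libraries lie at 35.8% to 37.7%, below HuCCT1 Ctrl at 38.6% to 42.4%, and all HEK293T libraries lie between 24.2% and 29%.

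CASC3, the cytoplasmic partner, was lower in HuCCT1 SNRPD2KO and in HEK293T passed only with the GC trend removed. In HuCCT1 it stood at 242.7, 230.4 and 224.4 CPM in SNRPD2KO and at 368.9, 391.0 and 373.2 CPM in Ctrl. The gap between those groups was wide beside their spread, with CASC3 1.63-fold lower in SNRPD2KO (log2 fold change -0.70, standard error 0.05, adjusted p = 8.57e-07). In HEK293T it stood at 111.5, 109.4 and 104.0 CPM in SNRPD2KO, at 109.1, 97.2 and 97.9 CPM in PUS7KO, and at 107.5, 108.1 and 123.0 CPM in Ctrl. These groups overlapped. The log2 fold change was -0.06 in SNRPD2KO (95% interval -0.22 to 0.11, adjusted p = 0.572) and -0.155 in PUS7KO (95% interval -0.32 to 0.01, adjusted p = 0.139). With the GC trend removed both passed, at -0.23 in SNRPD2KO (adjusted p = 0.0242) and -0.26 in PUS7KO (adjusted p = 0.0122).

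Counted together, 3 of 5 core genes passed the test as lower in HEK293T SNRPD2KO against Ctrl and none as higher, where 53.3% of all genes tested passed in either direction, 26.9% as higher and 26.4% as lower. That count was 1 without SNRPD2KO replicate 1, without Ctrl replicate 3 or without a filter on low counts. It was 2 with the GC trend removed, beside 51% of all genes passing in either direction. In PUS7KO against Ctrl 4 of 5 passed, all lower, beside 49.4% of all genes in either direction, 25.6% as higher and 23.8% as lower. That count was 1 without PUS7KO replicate 3 or without the filter. In HuCCT1 4 of 5 passed, all lower, beside 57.2% in either direction, 28.8% as higher and 28.4% as lower. Groups did not overlap for 3 of 5 core genes in HEK293T SNRPD2KO against Ctrl, 4 of 5 in PUS7KO against Ctrl and 4 of 5 in HuCCT1, beside 59.5%, 57.2% and 63.5% of all genes in these 3 comparisons. With 49.4% to 57.2% of all genes called, a count over 5 genes says little, and their shared downward direction is a description without a test. In HEK293T SNRPD2KO it turned for MAGOHB with the GC trend removed and for CASC3 without a filter on low counts (0.016) or without Ctrl replicate 3 (0.014). The median log2 fold change of the 5 genes was -0.25 in HEK293T SNRPD2KO, -0.29 in PUS7KO and -0.45 in HuCCT1 SNRPD2KO, beside medians over all genes of 0.02, 0.01 and 0.00. HEK293T SNRPD2KO and PUS7KO were set against the same 3 Ctrl libraries, so their values are not independent of each other. Those Ctrl libraries held 7944276 to 9202622 counts, below the 10022912 to 11270267 of SNRPD2KO and PUS7KO. Yet 29551 to 30073 genes had a count in Ctrl, against 24947 to 27460 in SNRPD2KO and PUS7KO. Whether this bears on the small differences from Ctrl was not tested. Between SNRPD2KO and PUS7KO, EIF4A3 was the 1 core gene of 5 that passed, beside 4.77% of all genes, 1.57% as higher and 3.2% as lower. Groups overlapped there for all 5, while 25.2% of all genes did not overlap. MAGOH (0.01), MAGOHB (-0.01), RBM8A (0.06) and CASC3 (0.095) did not pass there, with 95% intervals that lay within -0.23 and 0.26.

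**Figure D4:**
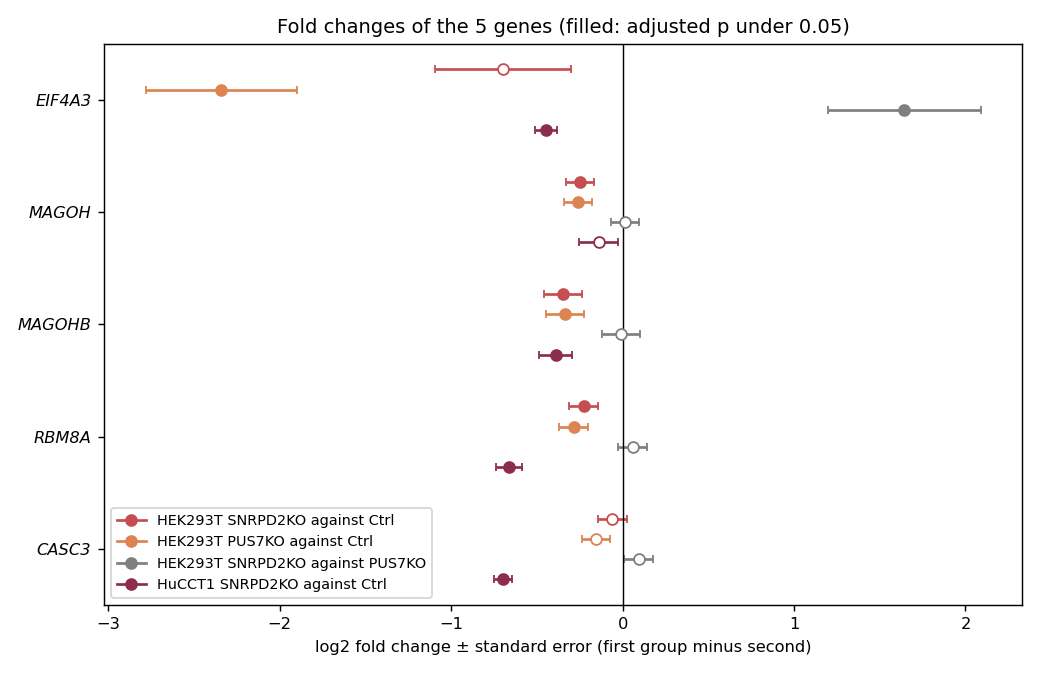
Log2 fold change ± standard error of each core gene in 4 comparisons, first named group minus second; filled points passed at an adjusted p under 0.05. All points against Ctrl lie at or left of -0.06, and EIF4A3 in PUS7KO lies farthest left at -2.34; with the GC trend removed, MAGOHB in HEK293T SNRPD2KO turned to 0.198.

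Whether the SNRPD2KO response differed between the lines was tested as an interaction over 12 libraries. It passed for 2 of 5 core genes, beside 40.7% of all genes, 19.8% as higher and 20.9% as lower. CASC3 gave -0.685 (HuCCT1 minus HEK293T on the log2 scale, standard error 0.10, adjusted p = 2.71e-05) and RBM8A gave -0.48 (standard error 0.12, adjusted p = 0.00259), so both fold changes were more negative in HuCCT1. Both held in all 22 alternatives. EIF4A3 (0.20, 95% interval -0.55 to 0.95), MAGOH (0.07, 95% interval -0.22 to 0.35) and MAGOHB (-0.09, 95% interval -0.35 to 0.17) did not pass. MAGOHB passed with the GC trend removed (-0.748, adjusted p = 0.00067), and EIF4A3 passed without HEK293T SNRPD2KO replicate 3 (0.775, adjusted p = 0.0434).

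Levels of different genes were compared only per kilobase of merged exon. In HEK293T Ctrl, MAGOH was highest at 138 ± 2.51 CPM per kilobase, then EIF4A3 at 35.6 ± 13.5 and CASC3 at 27.4 ± 2.13, whose ranges overlap, then MAGOHB at 14.6 ± 0.489 and RBM8A at 14.0 ± 0.898 (SD, n = 3 each). In HuCCT1 Ctrl, EIF4A3 was highest at 218 ± 6.46 CPM per kilobase, then CASC3 at 91.8 ± 2.85, MAGOH at 67.0 ± 8.34, RBM8A at 13 ± 0.315 and MAGOHB at 12.6 ± 0.596. The place of RBM8A depends on its transcript: merged exons span 4961 bases, but a transcript of 751 bases holds the whole coding part, and that length gives 92.3 ± 5.93 CPM per kilobase in HEK293T Ctrl and 85.8 ± 2.08 in HuCCT1 Ctrl. The tables of both lines were made separately, so levels across lines were not tested. Protein-coding genes held 61.73% to 68.84% of counts in HEK293T libraries and 93.55% to 95.34% in HuCCT1 libraries, so CPM rest on unlike totals. Levels across lines differ most for EIF4A3, whose lowest HuCCT1 library (249.4 CPM) is above its highest HEK293T library (79.1 CPM).

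Genes whose log2 CPM followed a core gene most closely were found over 15 libraries, each gene centred within its line, among 8730 genes. Group differences are shared by a large part of all genes here, so high coefficients are common and are given as a description. RBM8A was followed by YTHDF2, a reader of methylated adenosine in RNA (Pearson r 0.985), CGRRF1 (0.968) and G3BP2, a stress granule protein (0.966). CASC3 was followed by TXLNA (0.975), SLC3A2, an amino acid transporter subunit (0.972), and MRPL18, a mitochondrial ribosomal protein (0.972). MAGOH was followed by NDUFC1, a respiratory complex I subunit (0.938), SNRPF, an Sm ring protein (0.903), and IFT52 (0.901), and MAGOHB by TMA7 (0.935), INTS15 (0.914) and RPL24, a ribosomal protein (0.908). EIF4A3 had the loosest neighbours, TRAPPC1, a vesicle tethering subunit (0.880), DNAJC5 (0.849) and PSRC1 (0.840). Among the core genes themselves, RBM8A and CASC3 had r = 0.913, but 0.278 once group means were removed, and MAGOH and MAGOHB had 0.786 and 0.619. EIF4A3 had 0.312 to 0.530 with its partners, and with group means removed -0.117 with MAGOH, 0.315 with MAGOHB, -0.321 with RBM8A and 0.092 with CASC3.

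Factors that load and unload the clamp moved both ways. Of 5 such genes, 2 were lower and 2 higher in HEK293T SNRPD2KO and in PUS7KO, with medians of -0.06 and -0.08, beside 53.3% and 49.4% of all genes passing in either direction. CWC22, which brings EIF4A3 to the spliceosome, was lower in HEK293T SNRPD2KO (log2 fold change -1.23, adjusted p = 3.52e-07) and PUS7KO (-0.85, adjusted p = 1.52e-05), and its partner CWC27 was lower too (-0.63 and -0.43). IPO13, the importin that returns the MAGOH and RBM8A dimer to the nucleus, was higher in both (1.08 and 0.68), as was PYM1, which removes the complex at the ribosome (0.57 and 0.41). NOM1, a nucleolar partner of EIF4A3, had -0.06 and -0.08 and did not pass. In HuCCT1 SNRPD2KO, 2 were higher and 1 lower (median 0.12), beside 57.2% of all genes passing. IPO13 (0.84) and PYM1 (0.35) were higher, NOM1 (-0.50) was lower, and CWC22 (-0.15, adjusted p = 0.151) and CWC27 (0.12, adjusted p = 0.138) did not pass. Between SNRPD2KO and PUS7KO only IPO13 passed of these 5 (0.395, adjusted p = 0.0284), beside 4.77% of all genes. None passed with the GC trend removed, where only 0.586% of all genes passed.

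The peripheral ASAP and PSAP proteins, which dock on the clamp and act in splicing, were lower wherever they passed. In HEK293T SNRPD2KO 4 of 4 were lower, PNN (-1.01), ACIN1 (-0.73), RNPS1 (-0.33) and SAP18 (-0.25), with a median of -0.53, beside 26.4% of all genes lower. In PUS7KO 4 of 4 were lower, ACIN1 (-0.93), PNN (-0.70), SAP18 (-0.44) and RNPS1 (-0.39), with a median of -0.57, beside 23.8% of all genes lower. HuCCT1 SNRPD2KO had 3 of 4 lower, RNPS1 (-1.025), SAP18 (-0.915) and PNN (-0.56), while ACIN1 did not pass (-0.09, adjusted p = 0.171), beside 28.4% of all genes lower. Between SNRPD2KO and PUS7KO none passed by edgeR, DESeq2 or limma voom, beside 4.77% of all genes by edgeR. At an unadjusted p under 0.05, 2 were higher and 1 lower. The share of all genes at that unadjusted threshold is not given here, so these counts are a description. With the GC trend removed 3 of 4 were lower in HEK293T SNRPD2KO, beside 51% of all genes passing in either direction.

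Genes of TREX mRNA export, which ALYREF and NXF1 link to the clamp, split in every comparison with Ctrl. Of 11 tested, 5 were lower and 3 higher in HEK293T SNRPD2KO (median -0.155, and -0.01 with the GC trend removed), 5 lower and 2 higher in PUS7KO (median -0.18) and 6 lower and 3 higher in HuCCT1 SNRPD2KO (median -0.34). Of all genes 53.3%, 49.4% and 57.2% passed in these comparisons in either direction. THOC6, a THO subunit, was higher in all 3 (1.475 in HEK293T SNRPD2KO, 1.24 in PUS7KO and 1.62 in HuCCT1 SNRPD2KO). NXF1, the export receptor, was lower in HEK293T SNRPD2KO (-1.16), PUS7KO (-1.22) and HuCCT1 SNRPD2KO (-0.34). Its cofactor NXT1 was higher in HEK293T SNRPD2KO (0.75) and PUS7KO (0.63) and lower in HuCCT1 SNRPD2KO (-0.88). THOC1 was lower in HEK293T SNRPD2KO (-0.545) and PUS7KO (-0.74), and ALYREF was lower in HEK293T SNRPD2KO (-0.425), PUS7KO (-0.72) and HuCCT1 SNRPD2KO (-0.81). THOC2 was lower in HEK293T SNRPD2KO (-0.26, adjusted p = 0.0495) and higher in HuCCT1 SNRPD2KO (1.04). DDX39A was lower in PUS7KO (-0.51) and higher in HuCCT1 SNRPD2KO (0.89). Between SNRPD2KO and PUS7KO none of the 11 passed by edgeR or limma voom, beside 4.77% of all genes by edgeR. By DESeq2 2 were higher, and by edgeR 3 were higher at an unadjusted p under 0.05. The shares of all genes by DESeq2 and at that unadjusted threshold are not given here, so these counts are a description.

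NMD effectors, which read the clamp, were lower or did not pass in HEK293T and went both ways in HuCCT1. Of 10, 5 were lower in HEK293T SNRPD2KO (median -0.37) and 7 in PUS7KO (median -0.41), with none higher, beside 26.4% and 23.8% of all genes lower and 53.3% and 49.4% passing in either direction. UPF3B, the adaptor between the clamp and UPF2, was lower in HEK293T SNRPD2KO (-1.20) and PUS7KO (-0.69), as were the kinase SMG1 (-1.01 and -0.79) and SMG8, which regulates that kinase (-0.60 and -0.90). UPF2 was lower in HEK293T SNRPD2KO (-0.63) and PUS7KO (-0.45). In HuCCT1 SNRPD2KO 5 were higher and 4 lower (median 0.095), beside 57.2% of all genes passing, led by UPF3A (1.33), UPF2 (0.91) and the endonuclease SMG6 (0.79) on the higher side and SMG8 (-1.03) on the lower. Between SNRPD2KO and PUS7KO, SMG5 (0.34) and SMG8 (0.31) were higher in SNRPD2KO, beside 1.57% of all genes higher. With the GC trend removed no NMD effector passed there, where only 0.586% of all genes passed. DESeq2 called 2 higher and 1 lower, and its share over all genes is not given here.

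Of 9 transcripts known as NMD targets in human cells, 5 were lower and 3 higher in HEK293T SNRPD2KO (median -0.48), 4 lower and 3 higher in PUS7KO (median -0.20) and 8 lower with none higher in HuCCT1 SNRPD2KO (median -0.82). Of all genes 53.3%, 49.4% and 57.2% passed in these comparisons in either direction. With the GC trend removed 6 were lower and 2 higher in HEK293T SNRPD2KO (median -0.735), beside 51% of all genes passing. The counts in PUS7KO and HuCCT1 SNRPD2KO stayed the same with that trend removed (medians -0.33 and -0.80), beside 50.5% and 57.5% of all genes passing. The snoRNA hosts SNHG12 and SNHG1 were lower in HEK293T SNRPD2KO (-1.61 and -0.94), in PUS7KO (-1.46 and -0.94) and in HuCCT1 SNRPD2KO (-0.91 and -1.88). GADD45A, a stress-induced cell cycle gene, was lower in HEK293T SNRPD2KO (-1.13) and in PUS7KO (-0.39), and lower in SNRPD2KO than in PUS7KO (-0.73). UPP1, an enzyme of uridine breakdown, was lower in HEK293T SNRPD2KO (-0.60), PUS7KO (-0.42) and HuCCT1 SNRPD2KO (-0.92). ATF4, a stress transcription factor, was higher in HEK293T SNRPD2KO (0.555) and PUS7KO (0.46) and lower in HuCCT1 SNRPD2KO (-0.41). TBL2 was higher in HEK293T SNRPD2KO (0.47) and lower in HuCCT1 SNRPD2KO (-0.83). ZFAS1 was higher in PUS7KO than in Ctrl (0.41), lower in SNRPD2KO than in PUS7KO (-0.38) and lower in HuCCT1 SNRPD2KO (-0.82). Gene counts do not separate synthesis from decay. EIF4A2, the cytoplasmic initiation paralog of EIF4A3, gave 0.17 in HEK293T SNRPD2KO (adjusted p = 0.115, or 0.44 and passing with the GC trend removed), was higher in PUS7KO (0.26, adjusted p = 0.0207) and was lower in HuCCT1 SNRPD2KO (-0.65, adjusted p = 1.14e-06).

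**Figure D5:**
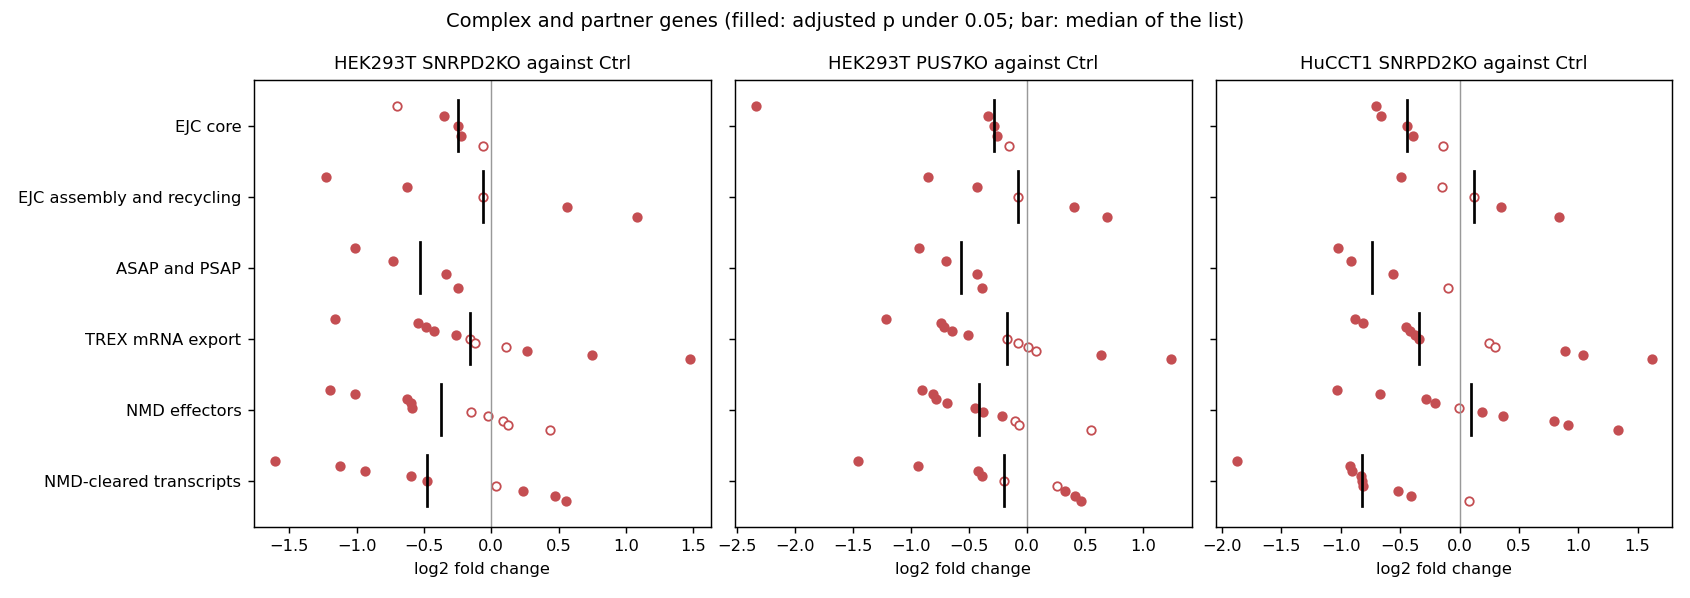
Log2 fold changes of the core genes and of 5 lists of partner genes and NMD targets in 3 comparisons with Ctrl; each point is a gene, filled where the adjusted p was under 0.05, and the bar is the median of the list. The core and the ASAP and PSAP genes lie left of 0 in all 3 panels, and the other lists lie on both sides in at least 1 panel.

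For the interaction between line and genotype, the numbers higher and lower in HuCCT1 were 2 and 1 of 5 loading factors, 2 and 2 of 4 ASAP and PSAP genes, 4 and 3 of 11 TREX genes, 5 and 2 of 10 NMD effectors, 2 and 5 of 9 NMD targets, and 0 and 1 for EIF4A2, beside 19.8% of all genes higher and 20.9% lower. EIF4A1, DDX39B, SARNP and POLDIP3 could not be tested. EIF4A1 and DDX39B were listed at 0 in all 9 HEK293T libraries and their whole spans are covered by another gene on the same strand, so their level is not known from these counts. SARNP held 1 to 9 counts per library and POLDIP3 0 to 6, and 92.6% and 99.6% of their spans are covered in the same way.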

How the data were processed

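The deposited values are counts, whole numbers per gene for each line in a table of its own, per the file headers. Per the submitters' processing notes, cutadapt 4.2, HISAT2 2.2.1 and RSEM were used with build hg38. The annotation release and the strand setting of the counting are not given in the sources used here. Per the labels' protocols, libraries were made with a stranded kit that removes ribosomal RNA. How multi-mapped reads were treated, which bears on MAGOH and MAGOHB, is not given there either.

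Here, in R 4.3.3, edgeR 4.0.16 gave TMM factors, the default low-count filter (10 counts, 15 in total) and two-sided quasi-likelihood tests, with p-values adjusted by Benjamini and Hochberg over all genes of a comparison at 0.05. HEK293T was fitted on 9 libraries, HuCCT1 on 6 and the interaction on 12. CPM are TMM-scaled. The square root of edgeR's common dispersion, a single value for all genes that leaves out counting noise, was 10.8% in HEK293T and 10.1% in HuCCT1. Floors and the intervals of the MAGOHB share cover counting error only. The 95% intervals of fold changes take a normal distribution for the standard error, so they can be narrower than the test would give. Alternatives were RLE factors, factors from coding genes, other filters, DESeq2 1.42.0, limma 3.58.1 voom, a replicate block, a GC offset from GENCODE 29 (GC known for 97% of genes), the compared groups alone, each library left out, and, after seeing the data, robust dispersions and another length for RBM8A. The fit was tested on simulated counts.

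The members, the lists of loading factors, ASAP and PSAP, TREX, NMD effectors, NMD targets and EIF4A paralogs, and the tests were chosen with earlier results of these data known. Besides the 5 members, at most 4 passing genes with the largest fold change were named per list and comparison, all of them in lists of 5 or fewer, and for each member the 3 genes of highest correlation among those of at least 5 CPM in each line. A gene that this rule names among the NMD effectors is not reported here.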

Additional observations from a re-analysis of the deposited data

Results flagged for a closer look

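For 2 of the 5 core genes the response to the label SNRPD2KO differed between the lines by the test of the interaction itself. CASC3 gave -0.685 (HuCCT1 minus HEK293T, log2 scale, adjusted p = 2.71e-05, edgeR's quasi-likelihood test), with a fold change of -0.70 in HuCCT1 and -0.06 in HEK293T. RBM8A gave -0.479 (adjusted p = 0.00259), with -0.66 in HuCCT1 and -0.23 in HEK293T. Of all genes tested 40.7% passed this test.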

How the results depend on the processing

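Of 675 alternative values, 581 kept their direction and their side of the threshold or stayed within 1.5 times. That total includes values that could hardly change. For the MAGOHB share of 3 against 3 libraries the exact permutation p cannot go below 0.1, so only its direction could turn. Its values with permutation within replicate numbers were the same by construction. EIF4A3 in PUS7KO against Ctrl, EIF4A3, RBM8A and CASC3 in HuCCT1, and both interactions that passed (RBM8A and CASC3) kept their call in every alternative run. Without a low-count filter 1 core gene, EIF4A3, was called in HEK293T SNRPD2KO and 1 in PUS7KO against Ctrl, CASC3 in SNRPD2KO was 0.016, MAGOH in the interaction was -0.033, and 1292 genes passed between SNRPD2KO and PUS7KO (758 in the main test). That comparison gave 464 genes with its 2 groups alone, 93 with the GC offset and 24 with the offset and the replicate block, and 0 core genes with DESeq2, robust dispersions, the 2 groups alone or the GC offset; leaving out 1 library gave 22 to 1891 genes and 0 to 1 core genes (22, 29 and 1891 genes without SNRPD2KO replicates 1, 2 and 3, and 285 and 32 without PUS7KO replicates 1 and 2). MAGOHB with the GC offset was 0.198 in SNRPD2KO against Ctrl and 0.319 against PUS7KO, and 0.200 and 0.326 with the block added. Summing the pair gave 0.006 for MAGOHB against PUS7KO and -0.005 for MAGOH in the interaction, and MAGOH between SNRPD2KO and PUS7KO was -0.002 with the 2 groups alone. The interaction called 4 core genes with the GC offset and the block. Leaving out each library gave 1 to 3 core genes called in HEK293T SNRPD2KO (1 without SNRPD2KO replicate 1 or Ctrl replicate 3) and 1 to 4 in PUS7KO (1 without PUS7KO replicate 3). It gave -0.10 to 0.014 for CASC3 in SNRPD2KO, -0.02 to 0.082 for MAGOH and -0.11 to 0.10 for MAGOHB between SNRPD2KO and PUS7KO, and -0.10 to 0.775 for EIF4A3 and -0.061 to 0.165 for MAGOH in the interaction. The MAGOHB share differed by -2.15 to 0.248 points in PUS7KO against Ctrl and by -1.58 to 0.842 between SNRPD2KO and PUS7KO. The causes were not tested.

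Over all genes, replicate numbers showed no pairing of the libraries: deviations of same-numbered libraries correlated between -0.086 and 0.044. A correlation over all genes cannot exclude a pairing that touches few genes. With the replicate block EIF4A3 in HEK293T SNRPD2KO passed (-0.78, adjusted p = 0.00229); in each HEK293T group replicate 2 was lowest and replicate 3 highest for this gene. The block changed no other call of a core gene, and genes passing were 8320, 7674 and 560 in the HEK293T comparisons (SNRPD2KO against Ctrl, PUS7KO against Ctrl, SNRPD2KO against PUS7KO) and 8346 in HuCCT1. Permutation within numbers gave p = 0.25 for the HuCCT1 MAGOHB share, the smallest that 3 pairs allow.

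Depth limits the EIF4A3 value of PUS7KO replicate 2, which rests on 44 counts. With 3 libraries a group, differences of MAGOH, MAGOHB and RBM8A near 1.2-fold depended on single libraries in HEK293T. Removing the GC trend lost the calls of MAGOHB in SNRPD2KO and PUS7KO and of RBM8A in SNRPD2KO. The MAGOH calls and the RBM8A call in PUS7KO held with that trend removed. RNA levels do not show protein or assembled complex.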
